A study of Rattus norvegicus with 20 samples.

Results

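Electrical excitability in neurons rests on a small set of membrane channels, and the 36 genes described here encode subunits of these: the pore-forming α and accessory β subunits of voltage-gated sodium channels, the α1, α2δ, β and γ subunits of voltage-gated calcium channels, and the HCN channels. They were chosen by symbol from the counts of the medial prefrontal cortex (mPFC) of rats treated with LSD, a serotonergic psychedelic, or with saline. The name pattern (*Scn*, *Cacna*, *Cacnb*, *Cacng* and *Hcn* genes) matched 44 symbols. *Cacng2*, *Cacng3* and *Cacng8* were left out by name as auxiliary subunits of AMPA receptors. An action on these receptors does not set them apart from every γ gene kept, since *Cacng7* has it too. *Cacng1* (0 to 6 reads per library) and *Scn10a* (1 to 6 reads) had too few reads. The other 39 members reached 5 reads in 10 or more of the 20 libraries, as did 16605 of the 31038 named genes in all, and 36 of the 39 are reported here. Nearest to this limit were *Scn11a*, with 5 reads or more in 12 libraries, *Cacna2d4*, with 14, and *Scn7a*, with 16.

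Voltage-gated sodium channels carry the rising phase of the action potential and are concentrated at the axon initial segment and the nodes of Ranvier, where β subunits adjust their gating and anchor them. Calcium channels turn depolarisation into calcium entry: the Cav1 channels signal to the nucleus from the soma and dendrites, the Cav2 channels trigger transmitter release and the Cav3 channels open near rest and shape bursting. HCN channels open on hyperpolarisation and set the resting potential and dendritic integration of cortical pyramidal cells.

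The groups were 10 rats that received LSD tartrate (0.16 mg/kg, intraperitoneally) every other day for 90 days and 10 that received sterile saline on the same schedule. All were male Sprague-Dawley rats, aged 6 to 8 weeks and weighing 180 to 200 g at the start of treatment, and the mPFC was taken after 3 weeks of discontinuation by the series' design text. The paper's methods give an older starting age and a longer interval, which apply to both groups alike. Each rat gave 1 library of poly(A)-selected RNA, and the mPFC came from 1 hemisphere, dissected from frozen brain.

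Reads on genes ranged from 16346629 to 25552681 per library in LSD-treated rats and from 11098076 to 24201351 in controls. Markers of cortical excitatory neurons (*Slc17a7*, *Neurod6*, *Tbr1* and *Camk2a*) summed to between 3209.9 and 5006 normalised RPM (reads scaled to library size) in the 20 libraries, as the tissue label asks. In 9 marker lists (excitatory neurons, astrocytes, oligodendrocytes and their precursors, microglia, endothelium, pericytes and smooth muscle, choroid plexus, and muscle) 0 of 36 genes were called by edgeR, 7 had an unadjusted p under 0.05 and DESeq2 called 2, both lower. Among the remaining lists, 1 of 4 general neuron markers was higher (*Map2*), and of 6 inhibitory neuron markers 2 were higher (*Gad2*, *Vip*) and 2 lower (*Slc32a1*, *Sst*). Haemoglobin *Hbb* was lower, and so was *Gpr6*, 1 of 5 markers of the striatum, which lies close to the mPFC. All 5 striatal markers had a negative log2 fold change, from -1.24 to -0.61, and an unadjusted p under 0.05. Their edgeR adjusted p-values ran from 0.0394 to 0.0822. Summed over *Drd1*, *Drd2*, *Adora2a*, *Gpr6* and *Rgs9*, the striatal markers stood at 113 to 193 normalised RPM in 4 libraries, those of LSD rat 9 and saline rats 2, 8 and 9, against 31.0 to 53.3 in the other LSD libraries and 41.6 to 72.6 in the other saline libraries. Comparisons are therefore also given without these 4 libraries, a choice made after the data were seen. Oligodendrocyte markers summed to a median of 3508 normalised RPM in LSD-treated rats, from 1979 to 5325, and to 4349 in controls, from 1936 to 6939, and their part in the results was not tested.

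Expression was compared with edgeR's quasi-likelihood test over all 16605 genes, and a gene is called here when its Benjamini-Hochberg adjusted p was under 0.05. Log2 fold changes are LSD over saline, and levels are TMM-normalised RPM, which are not corrected for transcript length, so levels of different genes are not ranked. The ranges of the 2 groups overlapped for each of the 36 members reported, as they did for nearly all genes. Without overlap were 0.108% of the 16605 genes with LSD-treated rats higher and 0.0843% with them lower. Since whole tissue was sequenced, fewer cells of a type and less RNA per cell cannot be told apart.

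Of the 36 members, 2 were called higher in LSD-treated rats (*Scn3a* and *Cacnb4*) and 3 lower (*Scn4a*, *Cacng7* and *Cacna2d2*). Over all genes tested, 6.49% were called higher and 8.54% lower, and of the members 5.56% and 8.33%. The remaining 31 members were not called. Log2 fold changes were positive in 22 of 36 members, with a median of 0.05 against 0.00 over all genes. An unadjusted edgeR p under 0.05 was found for 16 members. Such values were common over all genes too: *Hcn3*, with an unadjusted edgeR p of 0.0494, ranked 5086 by p among the 16605 genes tested. Counts at this threshold for single roles and gene lists are to be read against that background. DESeq2 called 6 members higher (16.7%) and 4 lower (11.1%), where 8.75% of all genes it tested were called higher and 11.2% lower. Without the 4 libraries with high striatal markers, edgeR called 6 members higher (16.7%) and 3 lower (8.33%), where 10.2% of all genes were called higher and 10.1% lower. The median log2 fold change of members was then 0.002 against 0.005 over all genes, with 19 positive. Over fits with each rat left out it ran from 0.005 (without saline rat 9, 19 positive) to 0.11 (without saline rat 4, 23 positive). Under offsets that removed each library's dependence on gene span it was -0.02 against -0.01 over all genes, with 17 positive.

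**Figure D1:**
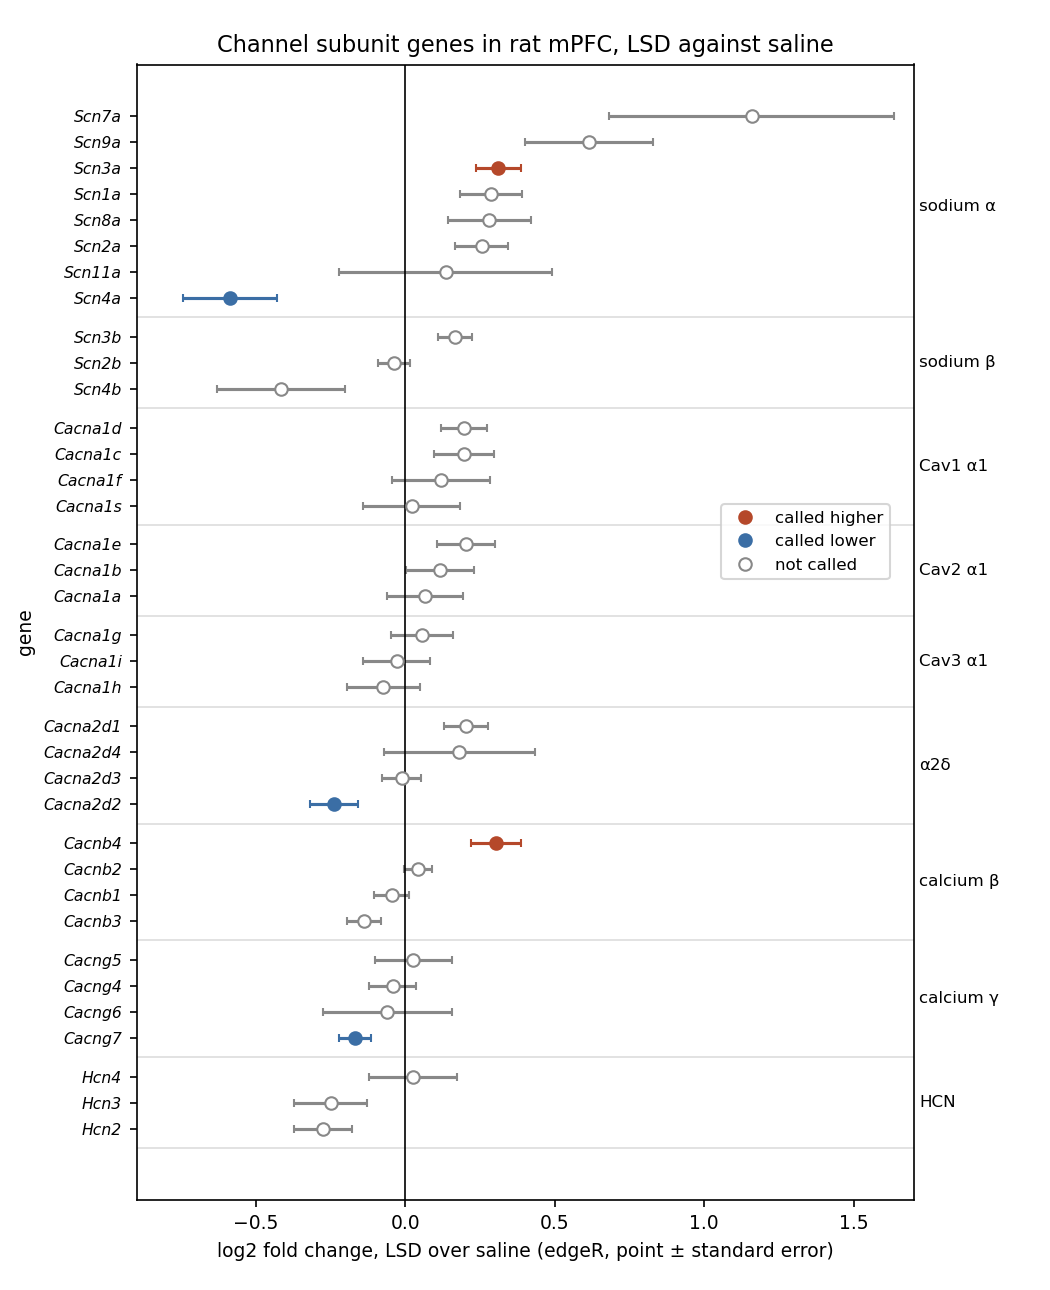
Log2 fold change (LSD over saline, point ± standard error from edgeR) of the 36 channel subunit genes, grouped by role, with filled points for called genes. The α subunits of the sodium channels lie mostly to the right of 0 and *Scn4a* and *Scn4b* farthest to the left, while most calcium channel genes lie within 0.25 of 0.

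Among 8 sodium channel α subunits, 7 had a positive log2 fold change, with a median of 0.28, and edgeR called 1 in each direction. An unadjusted p under 0.05 was found for 6 of the 8. DESeq2 called 4 higher (*Scn3a*, *Scn2a*, *Scn1a* and *Scn9a*) and 1 lower (*Scn4a*), where it called 8.75% of all genes higher and 11.2% lower. *Scn3a*, the α subunit known best from the developing brain, had 36.3 to 44.8 normalised RPM in LSD-treated rats, with a median of 41.8, and 22.6 to 38.6 in controls, with a median of 32.8. All 10 LSD-treated rats were above the controls' median and 7 above their highest value. The difference amounted to 1.24-fold (log2 fold change 0.31, standard error 0.075, edgeR adjusted p = 0.0109), and it was called under each of the 31 alternatives, with a log2 fold change from 0.26 to 0.34 with each rat left out in turn.

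*Scn2a*, which encodes the main α subunit of the initial segment of excitatory neurons early in life and remains abundant in their dendrites and axons, ranged from 268 to 439 normalised RPM with a median of 372 in LSD-treated rats, and from 212 to 367 with a median of 330 in controls. Most LSD-treated rats were high, 9 above the controls' median and 6 above their highest value, but *Scn2a* was not called (log2 fold change 0.26, standard error 0.089, edgeR adjusted p = 0.0540). Nor was it called without the 4 libraries with high striatal markers (0.22, edgeR adjusted p = 0.0599). *Scn1a*, the α subunit of fast-spiking interneurons and the gene of Dravet syndrome, had 48.9 to 67.6 normalised RPM with a median of 53.3 under LSD and 30.9 to 62.7 with a median of 48.1 under saline. Each of the 10 LSD-treated rats lay above the controls' median, and the log2 fold change of 0.29 (standard error 0.105) missed the threshold (edgeR adjusted p = 0.0642). It passed without the 4 libraries with high striatal markers (0.32, edgeR adjusted p = 0.0351). *Scn8a*, the α subunit of mature initial segments and nodes, had 157 to 288 normalised RPM with a median of 239 in LSD-treated rats and 92.4 to 246 with a median of 203 in controls. The wide spread in both groups left its log2 fold change of 0.28 (standard error 0.140) uncalled (edgeR adjusted p = 0.176). It stayed uncalled without the 4 libraries (0.20, edgeR adjusted p = 0.214) and under the span offsets (0.17, edgeR adjusted p = 0.382).

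Sodium channel genes better known outside the brain were measured at low counts. *Scn4a*, the α subunit of skeletal muscle, had 32 to 98 reads per library, with 1.63 to 3.35 normalised RPM (median 2.58) under LSD and 2.11 to 5.19 (median 3.86) under saline. No LSD-treated rat reached the controls' median and 3 fell below their lowest value. Its fold of 0.666 (log2 fold change -0.59, standard error 0.159) was called (edgeR adjusted p = 0.0184). The markers of skeletal and heart muscle summed to 6.38 to 22.7 normalised RPM in LSD-treated rats and 8.33 to 25.3 in controls, with 0 of 4 tested genes called by edgeR or DESeq2 and 0 with an unadjusted p under 0.05. *Scn9a*, the α subunit of nociceptors, had a log2 fold change of 0.61 from 5 to 45 reads per library (edgeR adjusted p = 0.0557), with 10 of 10 LSD-treated rats above the controls' median. It passed without the 4 libraries (0.80, edgeR adjusted p = 0.0190). *Scn7a*, which encodes a sodium-sensing channel of glia and sensory neurons, spread from 3 to 109 reads per library, and its log2 fold change of 1.16 had a standard error of 0.477 (edgeR adjusted p = 0.0997). Without the 4 libraries *Scn7a* was at 0.75 (edgeR adjusted p = 0.341). *Scn11a*, of sensory neurons, was at 0.14 and not called.

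In the GRCr8 annotation *Scn3a*, *Scn2a*, *Scn1a*, *Scn9a* and *Scn7a* are neighbours in 1 cluster of sodium channel genes. Nothing coding lies between *Scn3a* and *Scn2a*, or between *Scn1a*, *Scn9a* and *Scn7a*, and 4 coding genes lie between *Scn2a* and *Scn1a*. All 5 genes had a positive log2 fold change, from 0.26 to 1.16, with 1 of them called. Their genomic spans, from 102582 to 148193 bases, put them among the 3732 genes with the longest spans, of which 16.2% were called higher. Under the span offsets *Scn3a* was at 0.21 and called (edgeR adjusted p = 0.0251). Not called under them were *Scn2a* (0.16, edgeR adjusted p = 0.184), *Scn1a* (0.19, 0.185), *Scn9a* (0.51, 0.109) and *Scn7a* (1.07, 0.148). Of the reads on the 8 α subunits, *Scn2a* took 52.2% ± 2.25 (SD, n = 10) under LSD and 52.9% ± 2.39 (SD, n = 10) under saline. Such shares of reads, here and for other roles, do not depend on the scaling between libraries and are given without a test. Members of such a cluster are close in sequence, and how reads shared between paralogues were counted is not given in the sources used here.

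RefSeq promoter windows (250 bases before to 50 after the start, GRCr8) were found for 24 of the 36 members, 27 windows in all. The windows of the adjacent pair *Scn3a* and *Scn2a* and of the called genes *Scn4a* and *Cacna2d2* are shown because they mark the starts of genes called in either direction and of the closest neighbour of *Scn3a*. Of the other called genes, *Cacnb4* and *Cacng7* had no entry. Capitals mark each CG dinucleotide.
Scn3a (chr3:70666149-70666448, minus strand): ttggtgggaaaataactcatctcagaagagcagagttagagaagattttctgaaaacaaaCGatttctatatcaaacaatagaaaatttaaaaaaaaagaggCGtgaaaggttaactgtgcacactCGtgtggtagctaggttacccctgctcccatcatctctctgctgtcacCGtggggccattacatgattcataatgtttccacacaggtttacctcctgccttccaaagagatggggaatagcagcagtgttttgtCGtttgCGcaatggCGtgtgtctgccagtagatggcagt
Scn2a (chr3:70710706-70711005, plus strand): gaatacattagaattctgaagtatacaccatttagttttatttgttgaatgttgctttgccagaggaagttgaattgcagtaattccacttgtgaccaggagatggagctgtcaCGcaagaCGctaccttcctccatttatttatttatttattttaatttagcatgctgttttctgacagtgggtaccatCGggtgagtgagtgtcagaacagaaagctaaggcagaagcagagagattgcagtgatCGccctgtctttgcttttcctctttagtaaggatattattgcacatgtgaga
Scn4a (chr10:91796275-91796574, minus strand): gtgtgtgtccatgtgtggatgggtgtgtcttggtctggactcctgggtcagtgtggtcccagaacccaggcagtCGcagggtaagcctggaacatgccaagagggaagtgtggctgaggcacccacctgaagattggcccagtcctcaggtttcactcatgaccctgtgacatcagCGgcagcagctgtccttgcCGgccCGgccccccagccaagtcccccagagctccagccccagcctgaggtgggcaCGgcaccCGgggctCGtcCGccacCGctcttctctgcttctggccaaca
Cacna2d2 (chr8:116950856-116951155, plus strand): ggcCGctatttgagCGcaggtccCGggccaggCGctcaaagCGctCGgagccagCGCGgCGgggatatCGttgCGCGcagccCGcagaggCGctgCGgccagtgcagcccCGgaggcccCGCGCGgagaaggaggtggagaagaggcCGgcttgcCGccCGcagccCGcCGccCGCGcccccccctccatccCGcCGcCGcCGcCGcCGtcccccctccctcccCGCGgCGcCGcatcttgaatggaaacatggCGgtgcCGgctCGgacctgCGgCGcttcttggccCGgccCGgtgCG

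The window of *Scn3a* had 7 CG dinucleotides and 43.3% GC, and that of *Scn2a* had 4 and 39.3%. The median over all 33469 windows was 7 CG and 51.7% GC, and 94.5% of them held at least 1 CG. The window of *Scn4a* had 9 CG and 63.7% GC. That of *Cacna2d2* was rich in CG, with 44 CG and 77.0% GC, and 1.89% of all windows held as many CG or more. Searched on both strands, the GC box GGGCGG was found in the windows of 14 members (16 of 27 windows, against 33.1% of all windows), and of the windows shown only in that of *Cacna2d2*. TATAAA was found in the window of *Cacna1s* (14.2% of all windows), and neither CACGTG (6.42%) nor the full CRE TGACGTCA (1.83%) was found in a member's window. No motif contains another, though CACGTG and TGACGTCA share the letters ACGT.

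Of 3 sodium channel β subunits 0 were called by edgeR, 1 had an unadjusted p under 0.05 and DESeq2 called 1 higher (*Scn3b*), and their median log2 fold change was -0.04. *Scn4b*, the β subunit that supplies the blocking particle of resurgent current and is abundant in striatal neurons, had 45.7 to 114 normalised RPM with a median of 67.2 under LSD and 47.4 to 174 with a median of 92.7 under saline. Its log2 fold change of -0.42 had a standard error of 0.213 and was not called (edgeR adjusted p = 0.188). In the 4 libraries with high striatal markers *Scn4b* stood at 114 to 174, with 45.7 to 106 in the other LSD libraries and 47.4 to 129 in the other saline libraries. Without those 4 libraries its log2 fold change was -0.16 (edgeR adjusted p = 0.587).

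**Figure D2:**
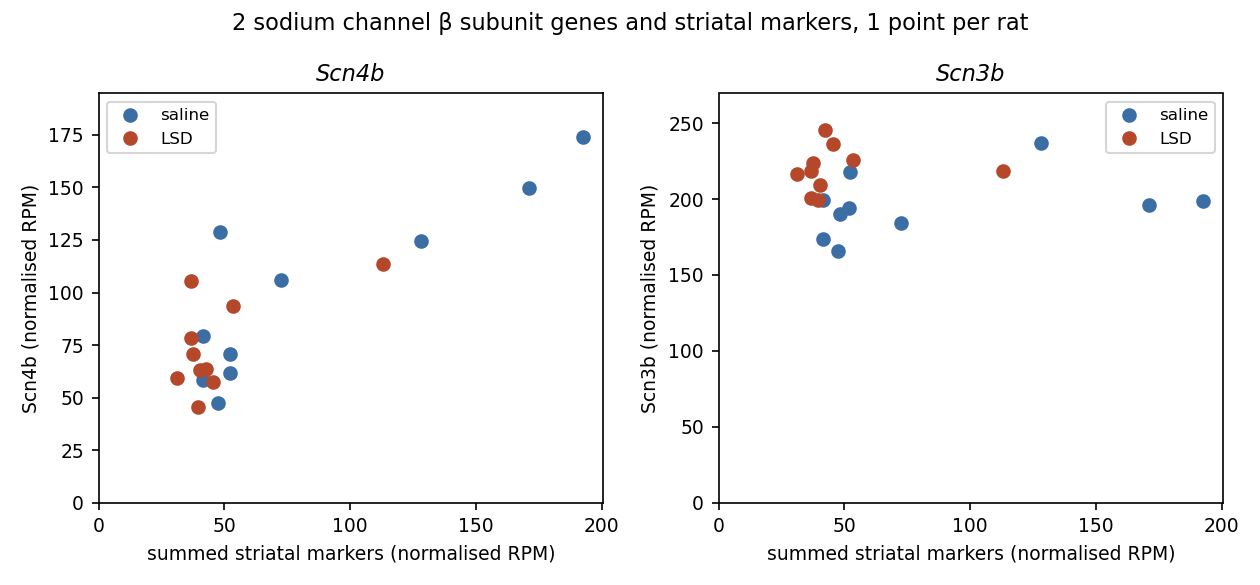
Normalised RPM of *Scn4b* and *Scn3b* (vertical axes) against the summed normalised RPM of 5 striatal markers (horizontal axes), 1 point per rat. The 4 libraries beyond 113 on the horizontal axis hold 3 of the 4 highest *Scn4b* values, and the *Scn3b* level in them lies within the range of the other rats.

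*Scn3b*, a β subunit without the covalent link to the α subunit, had 199 to 246 normalised RPM under LSD and 166 to 237 under saline. All 10 LSD-treated rats were above the controls' median, but the log2 fold change of 0.17 missed the threshold (edgeR adjusted p = 0.0527) and passed it without the 4 libraries (0.21, edgeR adjusted p = 0.0169). *Scn2b*, which links covalently to the α subunit, was at -0.04 and not called.

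All 7 high-voltage-activated α1 subunits had a positive log2 fold change, and 0 were called by edgeR or by DESeq2, with 2 at an unadjusted p under 0.05. Without the 4 libraries with high striatal markers *Cacna1a* was at -0.04 and *Cacna1f* at -0.07, and the log2 fold change of *Cacna1d* was 0.12 (edgeR adjusted p = 0.194). For *Cacna1d*, a Cav1 channel that opens at lower voltages than its relatives, LSD-treated rats had 71.0 to 89.4 normalised RPM with a median of 77.6 and controls 50.5 to 79.4 with a median of 71.6. In LSD-treated rats 9 of 10 values were above the controls' median, and the log2 fold change was 0.20 (standard error 0.076, edgeR adjusted p = 0.0822). *Cacna1c*, the main Cav1 channel of the cortex and a psychiatric risk gene, had 68.8 to 99.5 normalised RPM with a median of 80.9 and 44.4 to 88.0 with a median of 77.3, in LSD and saline. The medians were close, and the log2 fold change of 0.20 (standard error 0.101) had an edgeR adjusted p of 0.190. *Cacna1f* and *Cacna1s*, known from retina and skeletal muscle, had log2 fold changes of 0.12 and 0.02 from 12 to 64 reads per library.

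Of the Cav2 channels, *Cacna1e*, the R-type channel, ranged from 169 to 266 normalised RPM with a median of 236 under LSD and from 132 to 248 with a median of 204 under saline. Its log2 fold change was 0.20 (standard error 0.098, edgeR adjusted p = 0.161). The channels that drive most transmitter release differed less: *Cacna1a*, the P/Q-type channel, had 171 to 328 (median 265) against 157 to 329 (median 263) and a log2 fold change of 0.07 (standard error 0.127, edgeR adjusted p = 0.770). *Cacna1b*, the N-type channel, had 116 to 197 (median 171) against 97.3 to 188 (median 166) and a log2 fold change of 0.11 (standard error 0.114, edgeR adjusted p = 0.533). For both, the groups covered nearly the same range.

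Of the low-voltage-activated Cav3 channels, 0 of 3 were called by edgeR or DESeq2 and 0 had an unadjusted p under 0.05. *Cacna1g* had 98.7 to 141 normalised RPM (median 122) in LSD-treated rats and 79.0 to 162 (median 117) in controls, with a log2 fold change of 0.06 (standard error 0.102, edgeR adjusted p = 0.762). *Cacna1h* was at -0.07 and *Cacna1i* at -0.03.

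The α2δ subunits, extracellular proteins that carry calcium channels to the surface and bind gabapentin in *Cacna2d1* and *Cacna2d2*, held 1 call among 4 genes. *Cacna2d2* had 56.6 to 86.6 normalised RPM with a median of 78.1 in LSD-treated rats and 71.5 to 107 with a median of 90.8 in controls. All LSD-treated rats were below the controls' median and 2 below their lowest value. Its fold of 0.847 (log2 fold change -0.24, standard error 0.080) was called narrowly (edgeR adjusted p = 0.0469). The call was lost without any 1 of 16 rats, which are LSD rats 2 to 10 and saline rats 1 and 3 to 8, and over all 20 fits the log2 fold change lay between -0.27 and -0.19 and the adjusted p between 0.0191 and 0.0970. *Cacna2d1* had 181 to 228 normalised RPM (median 203) under LSD and 134 to 219 (median 176) under saline. All 10 LSD-treated rats lay above the controls' median, with a log2 fold change of 0.20 (standard error 0.074) that missed the threshold (edgeR adjusted p = 0.0657). Without the 4 libraries it was 0.20 as well and was called (edgeR adjusted p = 0.0496), and with offsets that removed each library's dependence on gene span it was 0.07 (edgeR adjusted p = 0.446). *Cacna2d3* was at -0.01, and *Cacna2d4*, from 1 to 9 reads per library, at 0.18. The share of α2δ reads taken by *Cacna2d1* was 55.6% ± 2.87 (SD, n = 10) under LSD and 49.8% ± 4.47 (SD, n = 10) under saline, and that of *Cacna2d2* was 20.7% ± 1.67 (SD, n = 10) and 25.3% ± 3.39 (SD, n = 10).

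The cytoplasmic β subunits of calcium channels, which bind the α1 subunit and bring it to the membrane, held 1 call. *Cacnb4*, the β subunit whose loss causes the lethargic mouse phenotype of ataxia and absence seizures, had 147 to 196 normalised RPM (median 162) in LSD-treated rats and 88.0 to 160 (median 141) in controls. All 10 LSD-treated rats were above the controls' median and 7 above their highest value. The difference was 1.23-fold (log2 fold change 0.30, standard error 0.083, edgeR adjusted p = 0.0194). It was called with each rat left out and without the 4 libraries (0.34, edgeR adjusted p = 0.0153). *Cacnb3*, its relative in cortical neurons, had 353 to 447 normalised RPM (median 401) and 370 to 522 (median 438). Its log2 fold change of -0.14 (standard error 0.057) was not called (edgeR adjusted p = 0.0966), nor was that of -0.15 without the 4 libraries (edgeR adjusted p = 0.0636). *Cacnb1* was at -0.05 and *Cacnb2* at 0.04. *Cacnb4* took 20.03% ± 1.88 (SD, n = 10) of the β subunit reads under LSD and 16.0% ± 2.73 (SD, n = 10) under saline.

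**Figure D3:**
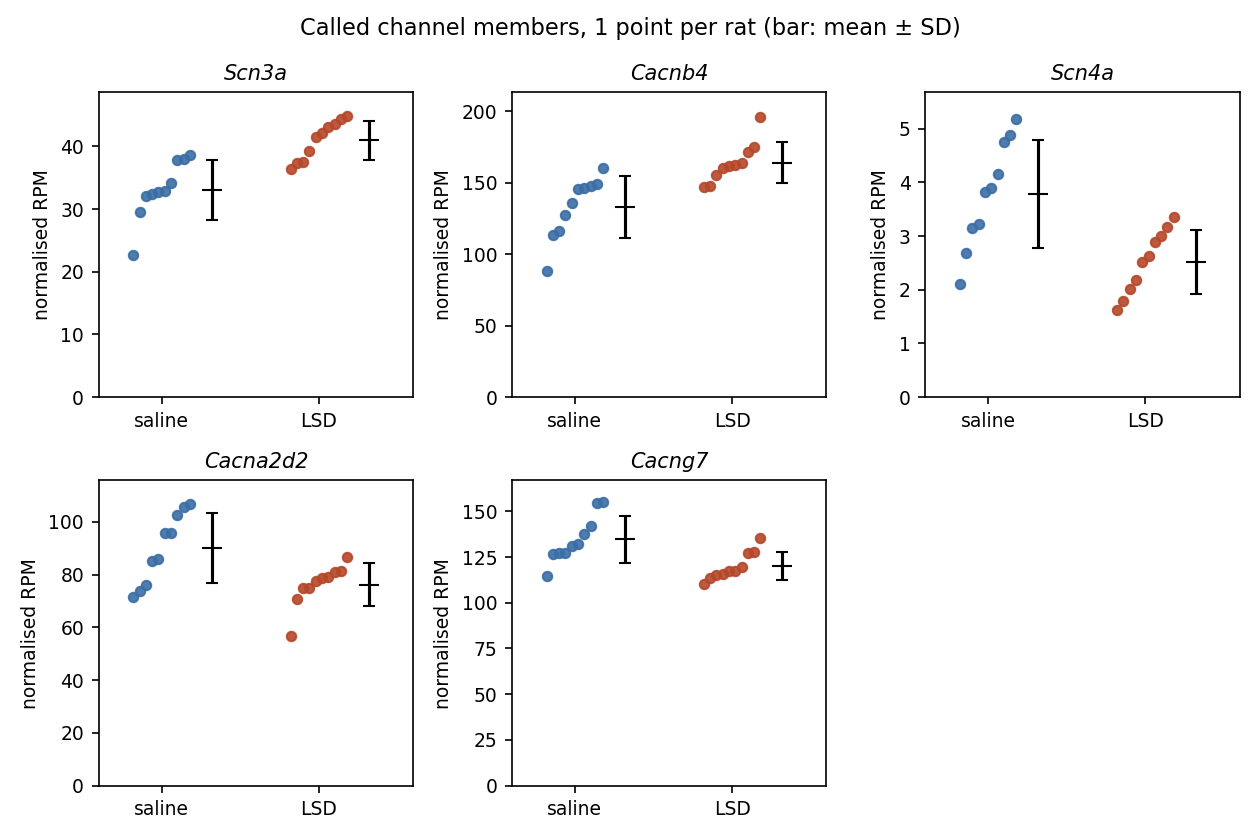
Normalised RPM of the 5 called members in each rat (points, ordered by value within a group), with the mean ± SD of 10 rats as a bar. In each panel the groups overlap at their edges: *Scn3a* and *Cacnb4* have 7 LSD-treated rats above all controls, and *Scn4a* has 3 below all controls.

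Of the γ subunits, *Cacng7*, which modulates calcium channels as well as AMPA receptors, had 110 to 135 normalised RPM (median 118) in LSD-treated rats and 114 to 155 (median 132) in controls. Only 1 LSD-treated rat was above the controls' median and 2 were below their lowest value, and the fold of 0.890 (log2 fold change -0.17, standard error 0.054) was called (edgeR adjusted p = 0.0386). This call was lost without any 1 of 12 rats (LSD rats 2, 3, 4, 5, 7, 8 and 9 and saline rats 1, 4, 5, 8 and 9), with adjusted p-values from 0.0171 to 0.0828 over the 20 fits, and without the 4 libraries with high striatal markers (-0.14, edgeR adjusted p = 0.102). *Cacng4* (-0.04), *Cacng5* (0.03) and *Cacng6* (-0.06) were not called.

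Of 3 HCN channels 0 were called by edgeR, though 2 had an unadjusted p under 0.05 and DESeq2 called 1 lower (*Hcn2*). *Hcn2* had 178 to 284 normalised RPM with a median of 241 in LSD-treated rats and 219 to 378 with a median of 281 in controls. Only 1 LSD-treated rat was above the controls' median and 4 were below their lowest value, with a log2 fold change of -0.28 (standard error 0.098, edgeR adjusted p = 0.0581). Without the 4 libraries with high striatal markers *Hcn2* was at -0.31 and not called either (edgeR adjusted p = 0.0559). *Hcn3* was at -0.25 and was called without the 4 libraries (-0.36, edgeR adjusted p = 0.0332), and *Hcn4*, the pacemaker channel of heart and thalamus, was at 0.03.

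Ratios of reads between 2 subunits within a library do not depend on the scaling between libraries. They were picked after the counts were opened and are given without a test. The ratio of *Cacnb3* to *Cacnb4* was 1.94 to 2.86 (median 2.41) under LSD and 2.53 to 5.12 (median 3.20) under saline, with 8 of 10 controls above all LSD-treated rats. *Cacnb3* has a genomic span of 12276 bases and *Cacnb4* of 262372. With the span offsets *Cacnb3* was at -0.10 (edgeR adjusted p = 0.239) and *Cacnb4* at 0.17 (edgeR adjusted p = 0.137), neither called. The part of span in this ratio, and in the shares of reads, was not tested. The ratio of *Scn2a* to *Scn8a*, with spans of 134708 and 173909 bases, had medians of 1.58 and 1.58. For *Scn2a* to *Scn1a* the medians were 6.72 under LSD and 6.52 under saline. The ratio of *Cacna1a* to *Cacna1e* had medians of 1.13 under LSD and 1.21 under saline, with 5 of 10 controls above all LSD-treated rats.

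**Figure D4:**
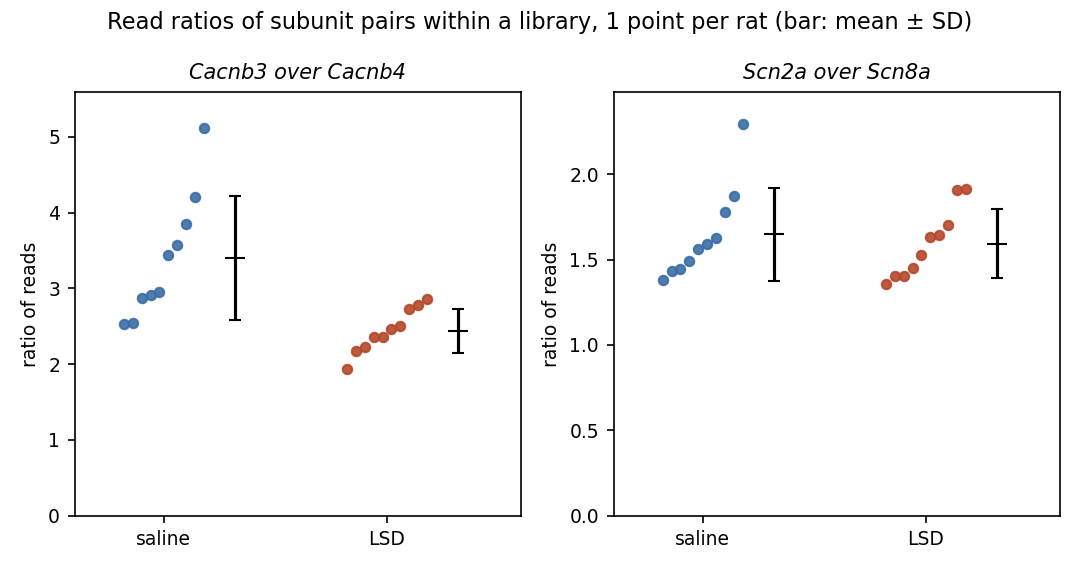
Ratios of reads between 2 channel subunits in each library (points, ordered by value within a group), with the mean ± SD of 10 rats as a bar. The *Cacnb3* to *Cacnb4* ratio of 8 controls lies above that of all LSD-treated rats, while the *Scn2a* to *Scn8a* ratio has the same median of 1.58 in both groups. The ratios are not corrected for genomic span, which is 12276 bases for *Cacnb3* and 262372 for *Cacnb4*.

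Channel genes are long, and log2 fold changes over all genes varied with genomic span, the distance from the start to the end of a gene. The members had a median genomic span of 86430 bases in GRCr8, against 24514 for all genes with a span, and 22 of the 36 were among the 3732 genes with the longest spans. In that class 16.2% of all genes were called higher and 2.60% lower. Spearman's rho between span and log2 fold change was 0.36 over all genes and 0.61 over the 36 members, a description across genes of the same libraries. With the span offsets, rho over all genes was -0.01 and over the members 0.35. Under these offsets 1 member was called higher, where 3.25% of all genes were, and 3 lower, where 6.80% were. *Scn3a* had a log2 fold change of 0.21 (edgeR adjusted p = 0.0251), *Scn4a* of -0.65, *Cacna2d2* of -0.34 and *Cacng7* of -0.19, all called. *Cacnb4* was at 0.17 and no longer called (edgeR adjusted p = 0.137), and the 7 high-voltage-activated α1 subunits fell between -0.07 and 0.10.

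**Figure D5:**
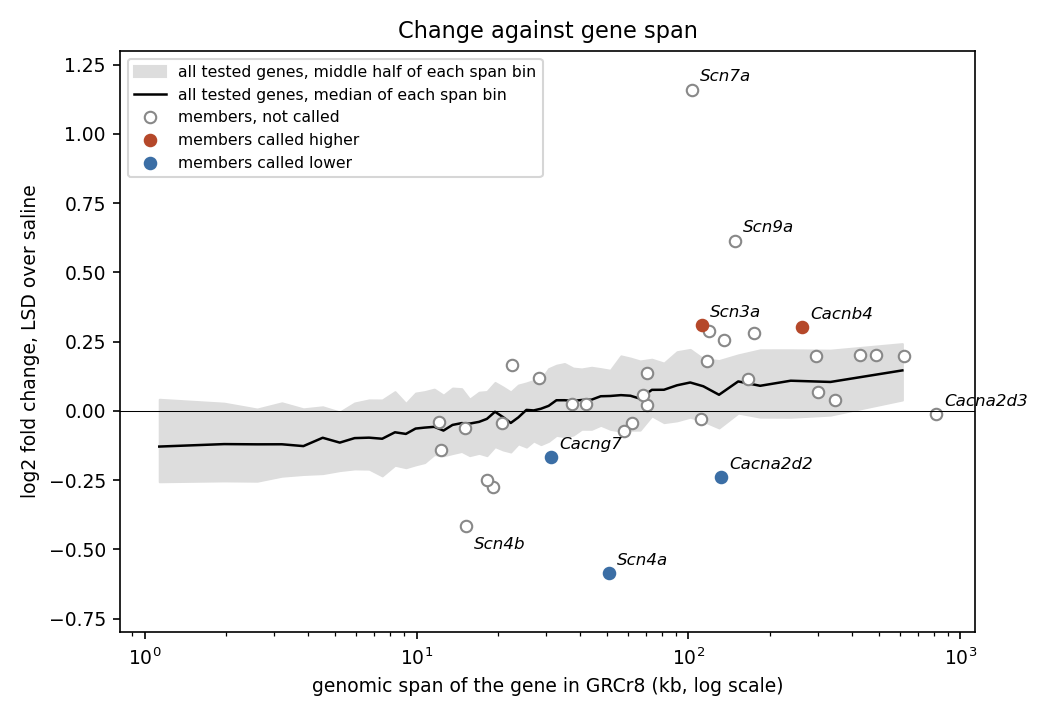
Log2 fold change (LSD over saline) against the genomic span of the gene (kb, log axis) for the 36 members (points) and for all tested genes (line, median of 50 span bins, and band, middle 50% of each bin). The line rises with span, *Scn3a*, *Cacnb4*, *Scn9a* and *Scn7a* lie above the band and *Scn4a*, *Scn4b* and *Cacna2d2* below it.

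The spread between rats was compared without a test. The coefficient of variation was lower under LSD in 32 of 36 members (88.9%) and in 77.5% of all genes, with a median over members of 12.7% under LSD and 19.5% under saline. Without the 4 libraries with high striatal markers, 3 of which are controls, it was lower in 23 of 36 members (63.9%) and in 57.8% of all genes, with medians of 12.5% and 13.1%.

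Genes that act with these channels were set beside the 6.49% of all genes called higher, without regard to span. Among the 3732 genes with the longest spans that share was 16.2%. Spans of the partners and their values under the span offsets are not given here. Of 10 partners of the sodium channel at the initial segment, such as ankyrins and fibroblast growth factor homologous factors, *Fgf14* was higher (log2 fold change 0.23, standard error 0.069, edgeR adjusted p = 0.0313) and none of the other genes was called by edgeR. Among the 10, 4 had an unadjusted edgeR p under 0.05. DESeq2 called 2 of the 10 higher and 0 lower, where it called 8.75% of all genes higher. Of 2 HCN partners, *Pex5l*, whose product TRIP8b guides HCN channels to the dendrite, was higher (0.40, standard error 0.107, edgeR adjusted p = 0.0177). In the sodium leak channel complex, 2 of 4 genes were higher, the pore *Nalcn* (0.23, standard error 0.074, edgeR adjusted p = 0.0419) and its scaffold *Unc80* (0.25, standard error 0.077, edgeR adjusted p = 0.0321).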

How the data were processed

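The deposited values are raw counts per gene. For these the authors used TrimGalore for trimming, HISAT2 with the rn6 genome for alignment and HTSeq for counting, without normalisation. Tool versions, the annotation and the strand setting are not given in the sources used here, so reads of overlapping and antisense genes cannot be told apart. The matrix ends with 5 unnamed rows (25.5% to 29.0% of all counts per library), which entered no step. The precision of each value is set by the spread between 10 rats per group and, for genes with few reads, by counting error.

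Counts were analysed in R 4.3.3 with edgeR 4.0.16 (TMM normalisation, glmQLFit and glmQLFTest, group as the only term) on genes that reached 5 reads in 10 or more of 20 libraries, and p-values were adjusted over all of them by the Benjamini-Hochberg method at a threshold of 0.05. The study used DESeq2. Here DESeq2 1.42.0, RLE size factors, total-count scaling, a block for the replicate number, filterByExpr or no filter on low counts, 1 surrogate variable (sva 3.50.0), gene span offsets (50 bins smoothed over 5, estimated from genes with a mean of at least 5 RPM), reads drawn to the smallest library and each rat left out were alternatives. The fit was tested on simulated data first, with fewer genes changed than were called in the rats. At an absolute log2 fold change of 0.3 it recovered 14 of 61 changed genes (23.0%). At 0.5 it recovered 47 of 69 (68.1%) and at 1 it recovered 62 of 69 (89.9%), with 6 false calls. Spans, neighbours and promoters came from RefSeq tables of GRCr8, matched by symbol, with a span for 89.9% of the tested genes and for all 36 members reported. They were read with Python 3.11.15 and pandas 2.3.3.

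The members, partner lists and marker lists were chosen with earlier results of these data known. Of the 39 members by the rule, 3 are not reported here, nor are some genes of the lists and the calcium channel partners, and every count of members is over the other 36. Each member is named with its log2 fold change, and ranges and full statistics are given for called members and for the best known subunits of each role. *Cacnb2*, *Hcn3* and other members outside that rule are named with fewer values. The labels name no batch.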

Additional observations from a re-analysis of the deposited data

Results flagged for a closer look

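In each group of 10 rats, the highest and the lowest value of every member was set against the rest of its group with Dixon's criterion, which flags about 1 in 20 groups by chance. Of 72 groups, 3 held such a rat. Saline rat 8 had 3.58 normalised RPM of *Cacna1s*, with the next control at 2.34, and 459 normalised RPM of *Scn2b*, with the next control at 384. LSD rat 10 had 56.6 normalised RPM of *Cacna2d2*, below the next LSD-treated rat at 70.9. Without LSD rat 10 the log2 fold change of *Cacna2d2* was -0.19 and it was no longer called (edgeR adjusted p = 0.0840).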

How the results depend on the processing

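Members called higher, 2 in the report, numbered 6 (16.7% of members, with 8.75% of all genes) with DESeq2, 7 (19.4%, with 9.04%) with total-count scaling, 6 (16.7%, with 8.16%) with the replicate block, 8 (22.2%, with 9.53%) with 1 surrogate variable, 1 (2.78%, with 3.25%) with gene span offsets and 6 (16.7%, with 10.2%) without the 4 libraries with high striatal markers. With each rat left out they numbered 2 to 6. The number was 6 without saline rat 8 (16.7%, with 7.01% of all genes) or saline rat 10 (16.7%, with 8.62%). Without saline rat 2 it was 4 (11.1%, with 10.1%). Members called lower, 3 in the report, numbered 1 (2.78%, with 5.17% of all genes) with total-count scaling, 1 (2.78%, with 3.32%) without a filter on low counts, 5 (13.9%, with 12.1%) with 1 surrogate variable, 0 after reads were drawn to the smallest library (edgeR, with 6.22% of all genes and 15 of 34 members in either direction at an unadjusted p under 0.05) and 1 to 5 with each rat left out. The count of members called lower was 5 without saline rat 2 (13.9%, with 11.2% of all genes). It was 1 (2.78%) without LSD rat 2, 3, 4, 5, 7, 8 or 9 or saline rat 1, 4, 5 or 8. In those fits 5.46% to 8.86% of all genes were called lower. Total-count scaling shifted the median of all genes by 0.05. The labels do not say that rats with the same number share anything, and they were not treated as pairs: deviations of same-numbered rats correlated with a mean r of 0.145 (lowest -0.26, against a mean of -0.016 for different numbers), 6 of 10 pairs were over 0.1, and 1 of 10 LSD-treated rats correlated best with its own number. The replicate block gave 6 higher and 4 lower members, with *Scn2a*, *Scn7a*, *Scn9a*, *Cacna2d1* and *Hcn2* beside the 5 called in the report. The 4 lower were 11.1% of members, with 9.67% of all genes. With gene span offsets as well it gave 2 higher (5.56%, with 4.54% of all genes) and 4 lower (11.1%, with 8.11%). *Scn3a* was called under all 31 alternatives, *Scn4a* under 30, *Cacnb4* under 29, *Cacng7* under 15 and *Cacna2d2* under 10. Members not called in the report were called under 9 (*Scn3b*), 8 (*Scn9a*), 7 (*Scn2a*, *Hcn2*), 5 (*Scn1a*, *Cacna2d1*), 4 (*Scn7a*), 2 (*Cacna1d*, *Cacnb3*) and 1 (*Hcn3*) of the alternatives. Over the alternatives the adjusted p ran from 0.00259 to 0.0257 for *Scn3a*, 0.00458 to 0.0642 for *Scn4a*, 0.00745 to 0.137 for *Cacnb4*, 0.0171 to 0.105 for *Cacng7*, 0.0058 to 0.097 for *Cacna2d2*, 0.0103 to 0.098 for *Scn3b*, 0.0146 to 0.109 for *Scn9a*, 0.0225 to 0.186 for *Scn1a*, 0.0213 to 0.446 for *Cacna2d1*, 0.00717 to 0.123 for *Hcn2*, 0.0332 to 0.322 for *Hcn3* and 0.11 to 0.587 for *Scn4b* (edgeR or DESeq2).

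Only members that were not called changed sign. With total-count scaling *Cacna1i* was at 0.022, *Cacna2d3* at 0.029, *Cacnb1* at 0.00040, *Cacng4* at 0.0070 and *Scn2b* at 0.0062. With gene span offsets *Cacna1a* was at -0.065, *Cacna1g* at -0.030, *Cacna1s* at -0.065, *Cacnb2* at -0.096, *Cacng5* at -0.022, *Hcn4* at -0.020 and *Scn2b* at 0.00085, and with the block as well *Cacna1a* was at -0.060, *Cacna1g* at -0.012, *Cacna1s* at -0.051, *Cacnb2* at -0.091, *Cacng5* at -0.062 and *Scn2b* at 0.0048. With the replicate block alone *Cacng5* was at -0.013, with 1 surrogate variable *Cacng5* was at -0.012, without a filter on low counts *Cacna2d3* was at 0.0037, and after reads were drawn to the smallest library *Cacng6* was at 0.0039 and *Hcn4* at -0.011. Without the 4 libraries *Cacna1a* was at -0.041, *Cacna1f* at -0.073, *Cacna1g* at -0.047, *Cacna2d3* at 0.022, *Hcn4* at -0.068, *Scn11a* at -0.27 and *Scn2b* at 0.017. With each rat left out, 8 members spanned 0: *Cacna1i* (-0.093 to 0.014), *Cacna1s* (-0.042 to 0.15), *Cacna2d3* (-0.033 to 0.027), *Cacng5* (-0.066 to 0.083), *Cacng6* (-0.14 to 0.025), *Hcn4* (-0.054 to 0.13), *Scn11a* (-0.0024 to 0.26) and *Scn2b* (-0.055 to 0.0021). The cause was not tested.

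Shares of reads per kb of transcript were not run, since the reference tables hold genomic spans only. *Cacna2d4*, *Scn11a* and *Scn7a*, with down to 1 to 3 reads in a library, carry the widest errors among the members, and 2 of these 3 were not tested after filterByExpr or after reads were drawn to the smallest library.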
